A study of Mus musculus with 2 samples.

Results

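Chemokines are small signalling proteins that attract leukocytes through seven-helix receptors, and they are grouped by the spacing of their first cysteines into CC, CXC and CX3C families. Most are secreted, whereas the products of Cxcl16 and Cx3cl1 are made as membrane-anchored proteins that proteases can release. Epithelial cells of the gut make several of them, many under the control of the transcription factor NF-kB or of interferons, so the set made by an epithelium helps to decide which immune cells gather there. The 10 chemokine genes described here were Ccl2, Ccl5, Ccl7, Ccl20, Cxcl1, Cxcl5, Cxcl10, Cxcl12, Cxcl16 and Cx3cl1. They were taken by name from the non-control spots of the arrays, which gave 15 probes on 24 spots per array, out of 41174 non-control probes for 27670 named genes.

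The cells were GIF-5, a line of mouse gastric epithelial cells with the genotype Runx3-/-p53-/-, which both groups share, grown in DMEM with bovine serum. A suspension stained with a phycoerythrin-labelled antibody to CD133 (the product of Prom1) was sorted into CD133-positive cells and CD133-negative cells, with no treatment and no time course. On each of 2 Agilent arrays the CD133-positive RNA carried Cy3 and the CD133-negative RNA carried Cy5, so a dye effect and the difference between the fractions cannot be told apart. The labels call the arrays biological replicates without saying whether cultures or sorts were separate, so p-values measure the spread between these arrays alone, which may be technical.

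All values below are from 1 cell line sorted from culture. Levels are normalised intensities of a probe, in arbitrary units that contain an added offset of 50, and are compared between fractions for the same probe only. Each ratio is the log2 difference, CD133-positive minus CD133-negative, as mean ± SE (n = 2 arrays). A gene was called at a Benjamini-Hochberg adjusted p under 0.05 in limma over 15267 tested genes. Of these, 251 genes (1.64%) were called, 211 higher (1.38%) and 40 lower (0.262%) in CD133-positive cells, and the median ratio of all tested genes was -0.03. Prom1, which checks the sort and the dye labels, was higher in CD133-positive cells by at least 3.58 on the log2 scale, a bound since no probe of it was above background in CD133-negative cells (limma adjusted p = 0.0097). As for the labelled cell type, the epithelial genes Cdh1, Krt8, Krt18 and Krt19 were well above background in both fractions on both arrays, whereas Epcam was so on 1 array, in CD133-negative cells alone.

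Called chemokines lay on both sides of 0. Cx3cl1 and Ccl20 rose in CD133-positive cells, by 4.86-fold and 2.75-fold, while Ccl2 and Cxcl10 fell, with levels 6.78-fold and 2.88-fold lower. Thus 4 of the 8 tested chemokines were called, against 1.64% of all tested genes. The same 4 genes differed by at least 2-fold the same way on both arrays, as 4.62% of all tested genes did. At an unadjusted p under 0.05 in limma there were 6 of the 8, against 27.9% of all tested genes. The median ratio of the 8 was -0.16, which lies between the ratios of Ccl5 and Ccl7, both near the floor. Ccl7 entered the test only through its signal in CD133-negative cells, so this median is no support for a direction. None of the 4 calls held with no filter on dim probes or without moderation of the variance by limma. In RNA of whole fractions, fewer cells that make a chemokine and less of its RNA per cell cannot be told apart. These counts describe a chosen list of genes and say nothing of chemokines at large.

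Of the 10 chemokines, 7 were well above background in both fractions on both arrays by the flag of the scanner program. These were Ccl2, Ccl5, Ccl20, Cxcl10, Cxcl12, Cxcl16 and Cx3cl1. Ccl7 was above background on neither array in CD133-positive cells and on both in CD133-negative cells. Cxcl1 passed this flag on array 1 in CD133-negative cells and nowhere else, and Cxcl5 passed it in no channel of either array. Cxcl1 and Cxcl5 therefore entered no test. Across all 27670 named genes, 13777 were above background in both fractions, 300 in CD133-positive cells alone and 1190 in CD133-negative cells alone. The lowest level of any probe flagged as above background was 66.9 and 67.0 in CD133-positive cells (Cy3) on arrays 1 and 2. In CD133-negative cells (Cy5) it was 55.0 and 55.1. These are single minima and no general threshold, since Cxcl5 at 67.0 and 71.0 in CD133-negative cells did not pass the flag. The part of the difference between these minima in the detection of Ccl7 and Cxcl1 was not tested.

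**Figure D1:**
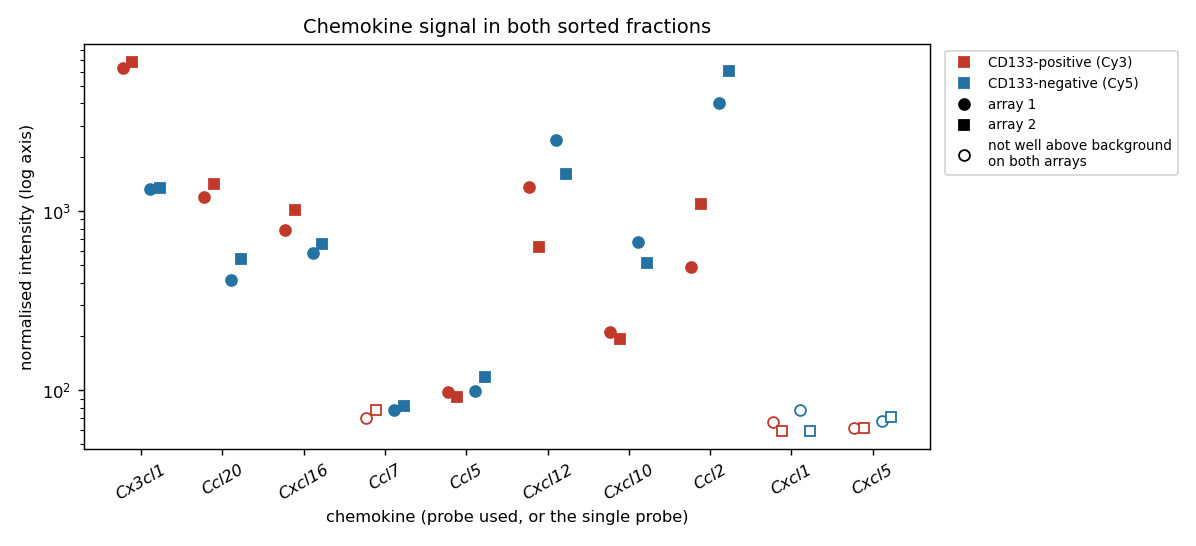
Normalised intensity (log axis) of the probe used for each of the 10 chemokines, in CD133-positive cells (red, left) and CD133-negative cells (blue, right), with array 1 as circles and array 2 as squares, and open symbols where the fraction was not well above background on both arrays. Cx3cl1 and Ccl20 sit higher in CD133-positive cells and Ccl2 and Cxcl10 lower on both arrays, while Ccl7, Ccl5, Cxcl1 and Cxcl5 lie near the floor.

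Cx3cl1 encodes fractalkine, the only CX3C chemokine, which as a membrane protein tethers cells bearing the receptor Cx3cr1 and after shedding attracts them. Its main probe, to the RefSeq transcript, read 6272 on array 1 and 6779 on array 2 in CD133-positive cells, against 1329 and 1355 in CD133-negative cells. Both CD133-positive values lay far above both CD133-negative ones, and the arrays differed little. The ratio was 2.28 ± 0.14, from 2.24 and 2.32 on the arrays (limma adjusted p = 0.020). This placed Cx3cl1 at percentile 99.1 of the ratios of all tested genes. The probe lies on chromosome 8 at 93371329 to 93371388 in the coordinates of the scanner files, whose genome build is not given in the sources used here, as for all probe positions below. A second Cx3cl1 probe, designed on a separate cDNA at 93361886 to 93361945, read 69.3 and 82.3 in CD133-positive cells, against 63.1 and 66.0 in CD133-negative cells. It was above background in CD133-positive cells on array 2 alone and was not tested. Its mean log2 ratio of 0.23 came from values near the floor and sets no minimum difference.

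Ccl20 encodes the CC chemokine that attracts lymphocytes and dendritic cells bearing Ccr6 to mucosal epithelia. Its probe (chromosome 1, 83327742 to 83327801) read 1196 and 1417 in CD133-positive cells, against 412 and 544 in CD133-negative cells. All values of CD133-positive cells exceeded those of CD133-negative cells. The ratio was 1.46 ± 0.14, with 1.54 and 1.38 on the arrays (limma adjusted p = 0.044). The call was narrow, with a limma adjusted p of 0.0503 on the deposited value table and of 0.051 when the dimmest tested probe stood for each gene.

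Cxcl16, the other membrane-anchored chemokine, binds Cxcr6 on T and NKT cells and also acts as a scavenger receptor. Its brighter probe, which spans 70537593 to 70540334 on chromosome 11, read 784 and 1023 in CD133-positive cells, against 585 and 655 in CD133-negative cells. The fractions did not overlap, but the ratio of 0.53 ± 0.15 missed the threshold (limma adjusted p = 0.13, 95% interval 0.12 to 0.95). The second probe, at 70535852 to 70535911, gave 0.37 on array 1 and 1.25 on array 2, the same direction with a wide gap between the arrays. The sign of the Cxcl16 ratio turned to -0.31 with median centring in place of loess, under which the median of all tested genes was itself -0.74. Relative to that median it was 0.43.

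Ccl2, also called MCP-1, encodes the main attractant of monocytes bearing Ccr2. Its probe is printed 10 times on each array, so that its level rests on more spots than that of any other chemokine of the list. It read 488 and 1093 in CD133-positive cells, against 4039 and 6063 in CD133-negative cells, with every CD133-negative value more than 3 times each CD133-positive one. The ratio was -2.76 ± 0.20, from -3.05 and -2.47 on the arrays (limma adjusted p = 0.027), at percentile 0.029 of all tested genes. Among its 10 spots the ratio lay between -3.09 and -2.95 on array 1 (SD 0.043) and between -2.52 and -2.43 on array 2 (SD 0.028). The arrays therefore differed by more than the spots within either of them did. The probe lies on chromosome 11 at 82118723 to 82118782.

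Cxcl10, also called IP-10, is an interferon-induced CXC chemokine that attracts activated T cells through Cxcr3. Its probe (chromosome 5, 92334002 to 92334061) read 213 and 194 in CD133-positive cells, against 670.5 and 512 in CD133-negative cells. Both CD133-positive values lay below both CD133-negative ones. The ratio was -1.53 ± 0.15, with -1.66 and -1.40 on the arrays (limma adjusted p = 0.045), and the adjusted p was 0.055 when the dimmest tested probe stood for each gene. With the deposited processed signals, which hold no offset, the mean ratio of the same probe was -1.93.

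Cxcl12, also called SDF-1, is a homeostatic CXC chemokine of stromal and some epithelial cells that signals through Cxcr4 and is bound by the atypical receptor Ackr3. The array carries a probe for transcript variant 2 (chromosome 6, 117207552 to 117207611) and one for transcript variant 1 (117200799 to 117200858). The variant 2 probe read 1361 and 628 in CD133-positive cells, against 2498 and 1607 in CD133-negative cells. The variant 1 probe read 455 and 243 in CD133-positive cells, against 668 and 486 in CD133-negative cells. Both probes read lower in CD133-positive cells on both arrays, and both fractions were dimmer on array 2. The ratio of variant 2 was -1.12 ± 0.18 and missed the threshold (limma adjusted p = 0.077, 95% interval -1.63 to -0.60). That of variant 1 averaged -0.78, so the 2 transcripts had the same direction.

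**Figure D2:**
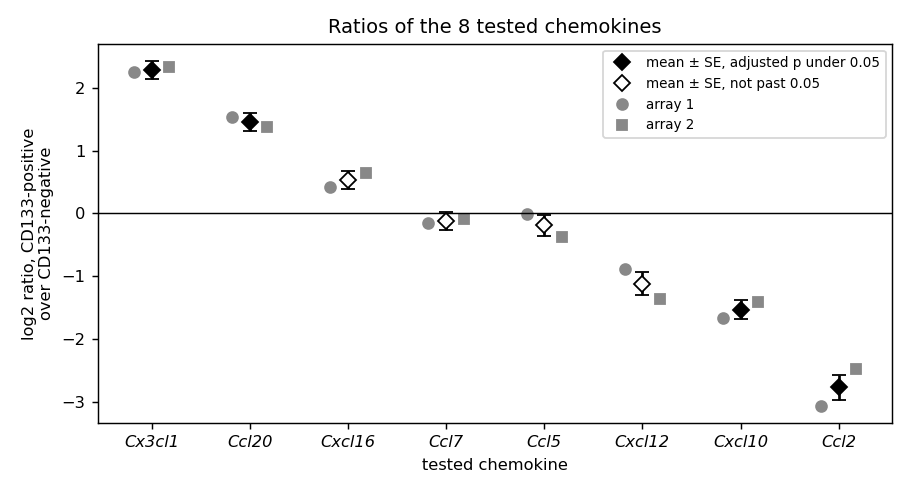
Log2 ratio of CD133-positive over CD133-negative cells for the 8 tested chemokines, with each array as a grey point (circle array 1, square array 2) and the mean as a diamond ± SE, filled where the limma adjusted p was under 0.05. Cx3cl1 and Ccl20 lie above 0 at 2.28 and 1.46, and Cxcl10 and Ccl2 lie below at -1.53 and -2.76.

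Ccl5, also called RANTES, attracts T cells and monocytes. Its brighter probe (chromosome 11, 83595699 to 83595758) read 98.5 and 91.8 in CD133-positive cells, against 99.2 and 118.6 in CD133-negative cells. The fractions lay close together and near the floor. The ratio was -0.19 ± 0.16 (limma adjusted p = 0.52), with a 95% interval of -0.65 to 0.27, and it came from -0.01 on array 1 and -0.37 on array 2. With the deposited processed signals the ratio was -0.61, without passing (limma adjusted p = 0.44). The second probe was above background on 1 array, in CD133-negative cells alone.

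Ccl7, also called MCP-3, shares the receptor Ccr2 with Ccl2 and is its direct neighbour on chromosome 11. Its brighter probe (82128729 to 82128788) read 69.7 and 77.6 in CD133-positive cells, against 77.8 and 82.2 in CD133-negative cells. Either probe read 1.09-fold higher in CD133-negative cells (ratio -0.12 by the brighter probe, limma adjusted p = 0.64). With no level above background in CD133-positive cells, these values set no minimum difference. The limma interval of the brighter probe ran from -0.51 to 0.27, which spans both directions. The deposited processed signals of the 2 probes gave mean ratios of -1.96 and -1.22. Those signals hold no added offset, and the size of the Ccl7 difference was not settled at this brightness.

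Cxcl1 and Cxcl5 encode ligands of Cxcr2 that attract neutrophils. The Cxcl1 probe (chromosome 5, 90882059 to 90882118) read 66.8 and 59.3 in CD133-positive cells, against 77.7 and 59.5 in CD133-negative cells. The Cxcl5 probe (chromosome 5, 90732453 to 90732512) read 61.8 and 61.6 in CD133-positive cells, against 67.0 and 71.0 in CD133-negative cells. A difference in either gene was not detectable at this brightness.

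Leaving out Ccl7, which had no level above background in CD133-positive cells, the order of the ratios was Cx3cl1, Ccl20, Cxcl16, Ccl5, Cxcl12, Cxcl10 and Ccl2. The 95% intervals of the neighbours Cx3cl1 and Ccl20 did not overlap (1.89 to 2.67 and 1.06 to 1.86), nor did those of Cxcl10 and Ccl2 (-1.95 to -1.10 and -3.32 to -2.20). Those of Cxcl16 and Ccl5 overlapped (0.12 to 0.95 and -0.65 to 0.27), as did those of Ccl5 and Cxcl12 narrowly (-1.63 to -0.60 for Cxcl12), and those of Cxcl12 and Cxcl10. No difference between chemokines was itself tested. On both arrays 5 tested chemokines lay below 0 and 3 above 0. The 5 include Ccl7, which entered the test only through its signal in CD133-negative cells, so its sign is no support. Over all tested genes the shares were 39.7% below 0 and 32.6% above 0 on both arrays.

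**Figure D3:**
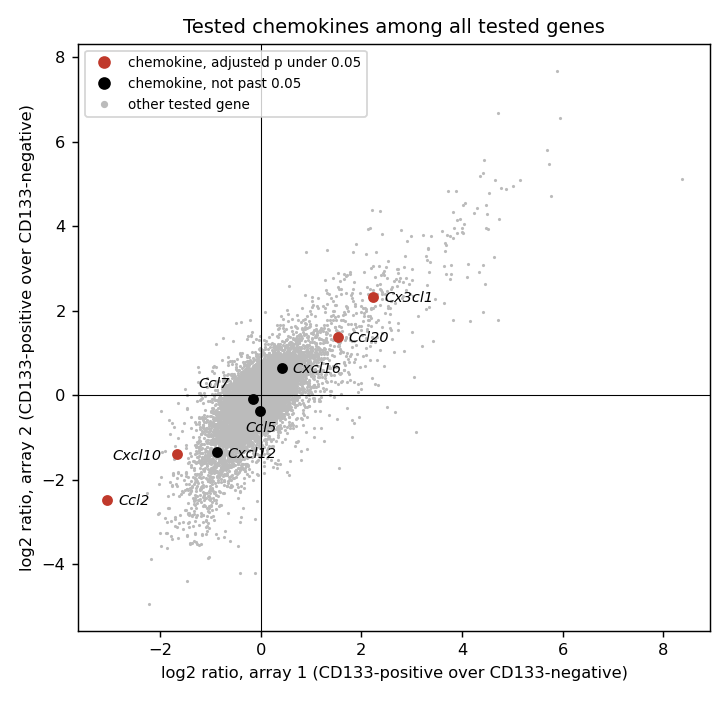
Log2 ratio of CD133-positive over CD133-negative cells on array 1 (x axis) and array 2 (y axis) for all 15267 tested genes (grey), with the 8 tested chemokines named, red where the limma adjusted p was under 0.05 and black otherwise. Ccl2 is at the low end of array 1, at -3.05, and each of the 8 chemokines has the same sign on both arrays.

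The sequences before the starts of 3 called chemokines and of Cxcl1 are shown because Cx3cl1 and Ccl20 rose while Cxcl10 fell, and Cxcl1, another gene of this family, was near background. They are the 250 bases before the annotated gene start, 5′ to 3′ on the strand of the gene, from RefSeq (GRCm38.p6), in which 5 of the 10 chemokines matched an entry. Capitals mark 3 motifs searched on both strands. The NF-kB-like one is GGGA, any 4 bases and CC, that of an interferon-stimulated response element is GAAA, any 2 bases and GAAA, and that of AP-1 is TGANTCA. The regions are chr8:94771930-94772179 (plus strand) for Cx3cl1, chr1:83116516-83116765 (plus strand) for Ccl20, chr5:92348890-92349139 (minus strand) for Cxcl10 and chr5:90890995-90891244 (plus strand) for Cxcl1.
Cx3cl1: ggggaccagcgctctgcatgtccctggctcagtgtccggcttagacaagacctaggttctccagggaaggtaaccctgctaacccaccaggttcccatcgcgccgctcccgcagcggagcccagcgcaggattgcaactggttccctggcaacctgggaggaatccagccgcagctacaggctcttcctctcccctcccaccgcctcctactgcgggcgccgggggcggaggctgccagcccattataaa
Ccl20: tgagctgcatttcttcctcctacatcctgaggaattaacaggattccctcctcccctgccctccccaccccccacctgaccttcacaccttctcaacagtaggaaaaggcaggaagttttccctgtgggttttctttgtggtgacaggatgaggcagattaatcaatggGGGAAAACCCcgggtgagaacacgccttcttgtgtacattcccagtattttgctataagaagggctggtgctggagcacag
Cxcl10: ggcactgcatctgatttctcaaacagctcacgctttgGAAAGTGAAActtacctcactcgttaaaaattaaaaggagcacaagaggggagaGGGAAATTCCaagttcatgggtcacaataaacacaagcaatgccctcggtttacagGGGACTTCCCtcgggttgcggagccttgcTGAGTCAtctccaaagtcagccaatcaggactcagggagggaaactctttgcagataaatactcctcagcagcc
Cxcl1: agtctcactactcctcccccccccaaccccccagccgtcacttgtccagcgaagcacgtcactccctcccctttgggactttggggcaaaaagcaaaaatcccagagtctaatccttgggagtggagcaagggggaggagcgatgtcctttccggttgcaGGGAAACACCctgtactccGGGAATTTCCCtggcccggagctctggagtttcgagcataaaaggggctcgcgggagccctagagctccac

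Ccl20 held the NF-kB-like letters once, as GGGAAAACCC at 81 to 72 bases before the start. Cxcl10 held them as GGGAAATTCC at 159 to 150 bases and as GGGACTTCCC at 103 to 94 bases before the start, the last of which matches on both strands. Cxcl10 was also the only one of the 5 windows with the interferon element letters (GAAAGTGAAA, 213 to 204 bases before the start) and with TGAGTCA (74 to 68 bases). Cxcl1 held the NF-kB-like letters as GGGAAACACC at 90 to 81 bases and as a pair of matches on opposite strands that overlap all but 1 base, GGGAATTTCC at 71 to 62 bases and GGAATTTCCC at 70 to 61 bases. None of these letters stood in the windows of Cx3cl1 and Cxcl12, which says only that they are not in these 250 bases. Of 32851 RefSeq windows of the same length, 17.6% held the NF-kB-like letters, 2.98% the interferon element letters and 6.75% the AP-1 letters. A gene that rose, a gene that fell and a gene near background thus all carried the NF-kB-like letters.

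Several of the 10 genes sit in runs of chemokine genes with no other protein-coding gene between them in the RefSeq gene table. In the run of 6 on chromosome 11, Ccl2 was bright and fell, Ccl7 and Ccl8 were above background in CD133-negative cells alone, and Ccl11, Ccl12 and Ccl1 were above background in no channel. In a second run of 5 on chromosome 11, Ccl5 stood beside Ccl9 and Ccl6, whose ratios were -3.03 ± 0.45 and -1.16 ± 0.25 (limma adjusted p = 0.070 and 0.099), and beside Ccl3 and Ccl4, which were above background in no channel. Ccl9, a CC chemokine of macrophages and follicle-associated gut epithelium, read 213 and 215 in CD133-positive cells, against 968 and 3155 in CD133-negative cells, with ratios of -2.18 and -3.87 on the arrays. In the run of 3 on chromosome 8, Cx3cl1 lay between Ccl22, above background in no channel, and Ccl17, a ligand of Ccr4. Ccl17 read 235 and 401 in CD133-positive cells, against 108 and 149 in CD133-negative cells, with a ratio of 1.27 ± 0.16 (limma adjusted p = 0.062). Cx3cl1 and Ccl17 thus had the same direction, though only Cx3cl1 passed. In the run of 7 on chromosome 5, Cxcl1 and Cxcl5 stood with Cxcl2 and Pf4, above background in no channel, with Cxcl3 and Ppbp, above background in CD133-negative cells alone, and with Cxcl15 (ratio -0.73 ± 0.17, limma adjusted p = 0.10).

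Among 28 other chemokine ligands, 26 had a probe and 12 were tested, of which 1 rose and none fell, against 1.38% and 0.262% of all tested genes. The one that rose was Cxcl17, a chemokine-like mucosal protein, which read 1553 and 911 in CD133-positive cells, against 375 and 248 in CD133-negative cells. Its ratio was 1.96 ± 0.14 (limma adjusted p = 0.027). The median ratio of the 12 was -0.31. It includes 4 genes that passed the filter through CD133-negative cells alone and 1 through CD133-positive cells alone. No probe was above background in any channel for 14 of the 26, and for 11202 of all 27670 named genes.

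Chemokine receptors were mostly not above background on these arrays. Of 22 receptor genes, 17 were above background in no channel, as were 11202 of all 27670 named genes. Among the 17 were Ccr2, Cxcr3, Cxcr4, Cxcr6 and Cx3cr1, the receptors of Ccl2 and Ccl7, Cxcl10, Cxcl12, Cxcl16 and Cx3cl1. Only Xcr1, Ccr6 and Ackr3 were tested, and none was called. Ccr6, the receptor of Ccl20, read 95.1 and 74.7 in CD133-positive cells, against 93.2 and 78.2 in CD133-negative cells (ratio -0.02 ± 0.14, limma adjusted p = 0.95). Ackr3 read 93.7 and 78.3 in CD133-positive cells, against 64.7 and 72.9 in CD133-negative cells (ratio 0.32 ± 0.17, limma adjusted p = 0.32). These values lie close to the floor, where small differences could not be detected.

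Of 22 NF-kB components and inducing receptors, 21 were tested, and 1 fell and none rose, against 0.262% and 1.38% of all tested genes. The median of the 21 was -0.51, against -0.03 over all tested genes, and 16 lay below 0 on both arrays, as 39.7% of all tested genes did. The gene that fell was Traf1, an adaptor of TNF receptors that is itself a target of NF-kB, with 224 and 162 in CD133-positive cells, against 744 and 588 in CD133-negative cells (ratio -1.80 ± 0.14, limma adjusted p = 0.030). A few others were picked out after their values were seen. The largest ratio of these was that of Il1r1, the receptor of interleukin-1, at -1.54 ± 0.40, from -0.80 and -2.28 on the arrays (limma adjusted p = 0.12). Nfkbia, an inhibitor that NF-kB itself induces, read 3132 and 3224 in CD133-positive cells, against 6344 and 6348 in CD133-negative cells, without passing (limma adjusted p = 0.066). The inhibitor gene Nfkbie (-1.01 ± 0.14) and the subunit gene Nfkb2 (-0.95 ± 0.18) also had negative ratios without passing (limma adjusted p = 0.067 and 0.083), and the receptor gene Tlr2 was on the other side, at 0.97 ± 0.15 (limma adjusted p = 0.076).

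Of 16 interferon signalling genes, 15 were tested, with a median of -0.44, and none was called by limma, while 2 higher and 5 lower genes had an unadjusted p under 0.05, against 27.9% of all tested genes in both directions. The largest ratios were those of Irf1, a transcription factor of the interferon response (1.10 ± 0.18, limma adjusted p = 0.076), and Ifit3, an interferon-induced gene (-1.03 ± 0.27, limma adjusted p = 0.12). Irf1 lay opposite to Cxcl10 in direction and Ifit3 on the same side, neither passing, and a link of either to Cxcl10 was not tested.

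Among 5 proteases that release or trim chemokines, 3 were tested and 1 fell, against 0.262% of all tested genes. Mmp14, a membrane metalloproteinase, was at -1.50 ± 0.14 (limma adjusted p = 0.042). Adam17 and Adam10, which shed fractalkine and the product of Cxcl16, were at 0.36 ± 0.14 and -0.17 ± 0.14 (limma adjusted p = 0.19 and 0.52). Dpp4 and Mmp2 were above background in no channel.

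**Figure D4:**
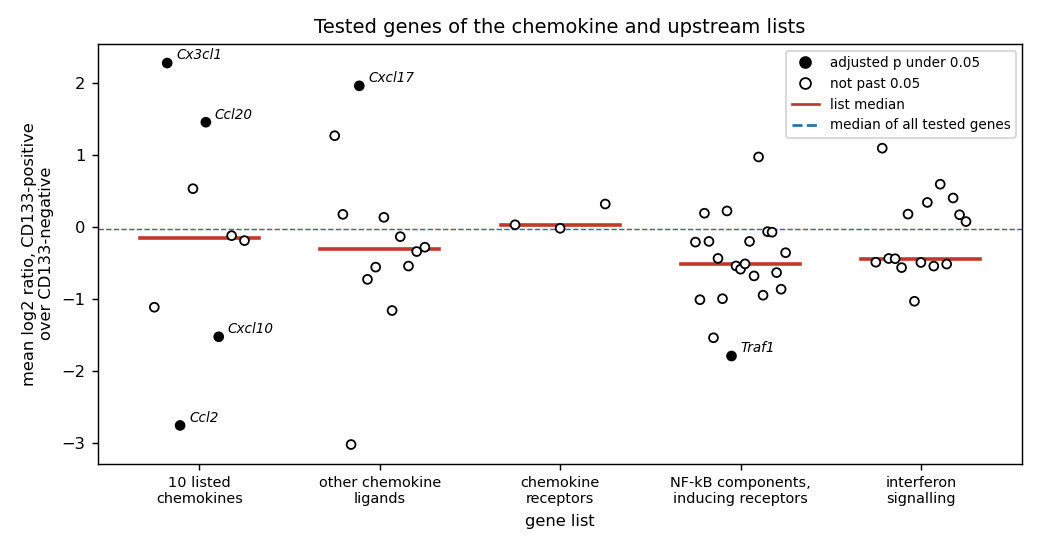
Mean log2 ratio of CD133-positive over CD133-negative cells of the tested genes of 5 lists, with filled points where the limma adjusted p was under 0.05, the median of each list as a red line and the median of all tested genes (-0.03) as a dashed line. Called genes lie on both sides of 0 among the 10 chemokines, whereas Cxcl17 and Traf1 are the single called genes of their lists.

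Markers of other cell types that make chemokines were looked at beside these results. Of 10 blood cell markers none was called and Ptprc, Itgam, Adgre1 and Ncr1 were above background in no channel; the summed level of the 10 was 2231 and 2065 in CD133-positive cells, against 2250 and 2063 in CD133-negative cells. Most of that sum was Cd14 (1452 and 1379 in CD133-positive cells, against 1421 and 1314 in CD133-negative cells). Of the 6 tested blood cell markers, 3 lay above 0 and 1 below 0 on both arrays. Lyz2 averaged 0.34 and Cd68 0.24, the latter with opposite signs on the arrays. The largest ratio of this list was that of Csf1r, the receptor of a macrophage growth factor, which was negative like that of Ccl2 without passing. The tested Csf1r probe was above background on both arrays only in CD133-negative cells, so its sign is no support. It read 143 and 80.2 in CD133-positive cells, against 247 and 156 in CD133-negative cells (ratio -0.87 ± 0.14, limma adjusted p = 0.078). The other Csf1r probes gave -0.08 and -0.26. Of 8 fibroblast and muscle markers none was called, Pdgfra, Pdgfrb, Dcn and Thy1 were above background in no channel, and the summed level was 8833 and 9475 in CD133-positive cells, against 8063 and 8985 in CD133-negative cells. Most of that sum was Acta2 (8238 and 8920 in CD133-positive cells, against 7403 and 8270 in CD133-negative cells). Of the 4 tested fibroblast and muscle markers, 2 lay above 0 and 1 below 0 on both arrays, with a median of 0.11. Col1a2 averaged 0.08 and Des 0.27. Col1a1, a collagen of fibroblasts, had a negative ratio like Ccl2 without passing (-1.25 ± 0.18, limma adjusted p = 0.067). It read 111 and 93.9 in CD133-positive cells, against 226 and 261 in CD133-negative cells. Its other probes gave -0.21, above background in CD133-negative cells alone, and 0.02, above background in no channel. The part of Csf1r and Col1a1 in the results on Ccl2 and Cxcl10 was not tested. Of 5 endothelial markers, Vwf (3.75 ± 0.15) and Cdh5 rose with Cx3cl1 (limma adjusted p = 0.012 and 0.043), while Pecam1, Kdr and Tek were above background in no channel. Cdh5 was at least 5.81-fold higher by its tested probe, the lower bound for a probe without a level in CD133-negative cells. A second Cdh5 probe, also without a level there, was 2.34-fold higher. The summed endothelial level was 1903 and 2663 in CD133-positive cells, against 368 and 395 in CD133-negative cells. Most of the CD133-positive sum was Vwf (1472 and 2033, against 121 and 137 in CD133-negative cells). The part of the endothelial markers in the Cx3cl1 result was not tested. Of the epithelial and gastric markers, the gastric genes Gkn2 (48.4-fold), Tff1 (21.1-fold) and Muc1 (3.43-fold) rose (limma adjusted p = 0.0097, 0.0097 and 0.033). Of the 12 tested, 8 lay above 0 and 3 below 0 on both arrays. The 8 include Cldn7, Gkn1 and Pgc, which entered the test only through their signal in CD133-positive cells, so their sign is no support. Those below 0 were Krt8 (-0.78 ± 0.14), Krt19 (-0.79 ± 0.15) and Krt18 (-0.54 ± 0.15), none passing (limma adjusted p = 0.083, 0.086 and 0.12). A second Krt8 probe gave -0.25. With the deposited processed signals the tested and the second Krt8 probe gave -0.46 and 0.15. The summed level of the epithelial and gastric markers was 350567 and 245810 in CD133-positive cells, against 324888 and 332995 in CD133-negative cells. Most of that sum was these keratins in both fractions.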

How the data were processed

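Per the file headers, the scans were quantified with Feature Extraction 9.5.3.1 of Agilent. The deposited spot and local background values are each an intensity without normalisation, and the deposited processed signals are an intensity after background subtraction, detrending and dye normalisation by that program. The deposited log10 ratio is of Cy5 over Cy3, and the value table of the series holds the same log10 values. The deposited p-value of a spot comes from the error model of the program for 1 array and was not used.

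Intensities were background-corrected by normexp (offset 50) and normalised by loess with control spots at weight 0, and unflagged spots of a probe were averaged. Names came from the accession for 22951 probes, from a symbol or synonym for 9768 (RefSeq, GRCm38.p6) and from the files for 8455. A probe was tested if well above background in 1 channel on both arrays, and the brightest tested probe stood for a gene (23173 probes, 15267 genes). Levels were taken per channel after Aquantile normalisation between arrays. A bound sets the mean log2 level of the brighter fraction against the higher, per array, of the lowest flagged level and the probe's own; it is open to dye bias.

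The two-sided test was that of limma 3.58.1 (R 4.3.3), with 1 residual and 2.86 prior degrees of freedom. Intervals are at 95%. An exact sign-flip permutation test over 2 arrays cannot go below p = 0.5. The number of arrays limits the precision, and no spot was saturated. The chemokines, the gene lists and the naming rule (all 10 chemokines, then the called genes of each list, up to 4, or with no call up to 2 of the largest ratio with 1 direction on both arrays, and those named for their detection; names outside the rule are said to be so) were chosen with earlier results of these data known. Alternatives changed the background correction, scaling, filter, variance model, probe choice and arrays.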

Additional observations from a re-analysis of the deposited data

How the results depend on the processing

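The direction of each of the 8 tested chemokines held under the alternatives that recomputed it (for the filters on dim probes only counts of calls were computed), except Cxcl16 with median centring (-0.31). That centring put the median of the tested genes at -0.74, and set against it Cx3cl1 and Ccl20 stayed above 0 and Ccl2, Cxcl10 and Cxcl12 below, while Ccl5 was at 0.34 and Ccl7 at 0.65. Of 15267 genes 251 were called, against 404 without background correction, 548 with an offset of 16, 486 with the processed signals or the value table, 10107 with median centring, 758 after scaling between arrays, 820 with an intensity trend, 156 with the dimmest probe, 29 with no filter and 0 without moderation (1507 at an unadjusted p under 0.05). The share of calls that were higher was 84.1%, against 70.5% without background correction, 72.6% with an offset of 16, 4.79% with median centring, 55.8% after scaling and 60.2% with the trend. Of the chemokines 4 were called, but 2 (Cx3cl1 and Ccl2) with the dimmest probe, 0 with no filter and 0 without moderation, where Ccl2 (-2.76), Ccl20 (1.46), Cxcl10 (-1.53) and Cx3cl1 (2.28) kept their values with adjusted p of 0.51, 0.50, 0.50 and 0.48. Ccl20 (1.46) and Cxcl10 (-1.53) had adjusted p of 0.051 and 0.055 with the dimmest probe, and Ccl20 (1.67) had 0.0503 with the value table. Cxcl12 was called with median centring (-2.01, adjusted p = 0.0072) and after scaling (-1.11, adjusted p = 0.049). Keeping flagged spots, chosen after seeing the data, gave 256 calls and the same 4 chemokines.

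Chemokines above background in CD133-negative cells alone were 1, and 2 on at least 1 array, by the positive-and-significant flag, or on array 1 (without replicate 2; range 1 to 2 over both arrays). Those in neither fraction were 2, and 1, 0 and 1 (range 1 to 2). The ratio tested already pairs the fractions within each array, which leaves no further replicate block to add. Dim signal limits Ccl5, Ccl7, Cxcl1 and Cxcl5.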
